A study of Mus musculus with 6 samples.

Results

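The genes described here let cells of the colon take up, export, sense and interconvert lactate and the short-chain fatty acids that gut bacteria release. The 10 members are Slc16a1, Slc16a3, Bsg, Slc5a8, Slc5a12, Ldha, Ldhb, Ffar2, Ffar3 and Hcar1, out of 19938 genes that had a probe set of their own. They were chosen by function, with earlier results of these data known. Each was represented by the probe set that named it alone and had the highest mean over all 6 arrays. No member had to be set apart for lying only on probe sets shared with other genes. Ldhb was the 1 member with a second probe set.

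Total RNA of sorted colonic epithelial cells (EpCAM-positive, CD45-negative) was measured on 6 Affymetrix arrays, 1 per sample. The mice were wild-type male BALB/c animals aged 6 weeks, and every sample followed a fast of 36 h and 24 h of renewed feeding. In 3 samples the mice received antibiotics during the renewed feeding (antibiotics), and in 3 they did not (re-fed). The antibiotics are not named in the sources used here, nor is the number of mice behind each sample, so p-values measure the spread between these samples alone. Values are log2 expression after quantile normalisation, which gives each array the same distribution of signals. Differences are log2, antibiotics minus re-fed.

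In the colon, bacteria ferment fibre to acetate, propionate and butyrate, and some release lactate. Butyrate is a main fuel of colonocytes. Monocarboxylate transporters of the Slc16 family carry lactate and short-chain fatty acids across membranes together with a proton, and basigin (Bsg) brings Slc16a1 and Slc16a3 to the cell surface. Slc5a8 and Slc5a12 carry the same kind of acids together with sodium. Lactate dehydrogenase, made of Ldha and Ldhb subunits, interconverts pyruvate and lactate. Ffar2 and Ffar3 are receptors for short-chain fatty acids, and Hcar1 is a receptor for lactate.

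Before the values, 3 features of the arrays bear on them. The deposited values of antibiotics replicates 1 and 2 and re-fed replicates 2 and 3 shared 372 to 435 distinct numbers per pair of arrays. Each of these arrays held 34568 or more distinct numbers, and their medians ran from 6.06 to 6.17. They are named the common run here, but whether they were normalised together was not tested. How many numbers arrays share without joint normalisation was not counted. Re-fed replicate 1 and antibiotics replicate 3 shared at most 198 and 67 with any other array and are treated as standing outside that run, a grouping inferred from the values and not from a label. Antibiotics replicate 3 also held fewer distinct numbers in all, which leaves fewer to share. Epcam, the gene of the sorted surface marker, stood at 12.08 to 12.20 in antibiotics arrays and 12.08 to 12.29 in re-fed arrays. Among 10 epithelial markers none was dim, from Cdx2, an intestinal transcription factor (mean 9.70), to the keratin Krt8 (mean 13.79), and of 10 leukocyte markers 8 were dim, among them Ptprc, which encodes CD45 (5.30 to 5.54 in antibiotics arrays and 5.31 to 5.50 in re-fed arrays). The other markers of that list ran from Cd79a of B cells (mean 4.57) to Cd68 of macrophages (mean 7.09), and the mean level of the list was 5.42 to 5.44 in antibiotics arrays and 5.35 to 5.43 in re-fed arrays. Of 10 markers of stroma and endothelium, from Dcn (mean 5.15) to Col1a1 (mean 6.76), 5 were dim.

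A gene was called dim when its mean over 6 arrays lay under 5.81, the 40th percentile of probe sets with a gene, since the deposited values carry no detection call. Of the 10 members, 6 lay above that floor and were tested with all 12071 genes above it (limma, Benjamini-Hochberg adjusted p under 0.05). The other 4, Slc5a12, Ldhb, Ffar3 and Hcar1, were dim and are given as values, with no test at this floor. None of the 6 passed, against 0.0580% of all genes tested. At an unadjusted p under 0.05 there was 1 member, Slc5a8, lower with antibiotics, against 12.6% of all genes in either direction and 7.32% in the lower one. Within the common run 1 member passed, Slc16a3, against 0.447% of all genes there.

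The start regions of the 3 transporters on which the results turn are printed here. Slc16a3 and Ldha are known targets of the hypoxia-inducible factor HIF-1, whose core recognition letters are ACGTG or GCGTG, and capitals mark these letters and their reverse complements, so that both strands are searched. Where ACGTG on both strands overlaps, the letters form CACGTG, the E-box, which is also the recognition sequence of Myc and of clock factors. Each sequence holds the 250 bases before the start of the transcript, from RefSeq on the mouse build GRCm38.p6, plus strand.
Slc16a3, chr11:120948817-120949066: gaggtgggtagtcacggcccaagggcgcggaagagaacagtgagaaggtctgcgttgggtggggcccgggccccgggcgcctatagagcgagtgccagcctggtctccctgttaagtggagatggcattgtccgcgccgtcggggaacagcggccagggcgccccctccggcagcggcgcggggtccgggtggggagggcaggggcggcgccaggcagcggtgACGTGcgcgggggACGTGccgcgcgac
Slc16a1, chr3:104638414-104638663: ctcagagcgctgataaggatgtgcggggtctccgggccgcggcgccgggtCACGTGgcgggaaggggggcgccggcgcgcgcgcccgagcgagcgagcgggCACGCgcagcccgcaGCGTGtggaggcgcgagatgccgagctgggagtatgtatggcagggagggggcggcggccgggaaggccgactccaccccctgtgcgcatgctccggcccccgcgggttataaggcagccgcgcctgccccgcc
Slc5a8, chr10:88885742-88885991: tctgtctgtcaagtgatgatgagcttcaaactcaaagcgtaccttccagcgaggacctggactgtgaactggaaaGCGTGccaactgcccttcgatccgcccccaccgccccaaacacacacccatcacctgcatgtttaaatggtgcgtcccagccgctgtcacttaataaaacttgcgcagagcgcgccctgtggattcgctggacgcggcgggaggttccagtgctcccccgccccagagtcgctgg

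The Slc16a3 window held 2 matches, both ACGTG, close to the start. In the Slc16a1 window there were 4 matches in 3 separate stretches, among them 1 CACGTG. Slc5a8 had 1 match. Of all 32851 windows of this length in the table, 38.6% held at least 1 match and 6.02% held CACGTG, and in the members 7 of 12 windows, which cover 8 of the 10 genes, held a match. G and C made up 73.6% of the Slc16a3 window, 76.4% of the Slc16a1 window and 58.8% of the Slc5a8 window, and the letters searched are themselves rich in G and C. Ldha has 2 windows, with 5 matches in 1 and 1 match in the other. A match describes letters and is not evidence that a factor was bound.

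Slc16a1, the proton-coupled transporter (MCT1) that moves lactate and butyrate in colonocytes, stood at 11.30, 11.57 and 11.36 in antibiotics replicates 1 to 3, against 11.73, 11.61 and 11.58 in re-fed replicates 1 to 3. After quantile normalisation every antibiotics array lay below every re-fed array, although antibiotics replicate 2 and re-fed replicate 3 were nearly level. Means were 11.41 ± 0.15 with antibiotics and 11.64 ± 0.08 in re-fed samples (SD, n = 3 each). The difference was -0.23 (SE 0.11, 95% interval -0.48 to 0.02), and it did not pass (limma, adjusted p = 0.440). Within the common run it was -0.16 (adjusted p = 0.536).

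Slc5a8, the sodium-coupled transporter (SMCT1) of short-chain fatty acids and lactate on the luminal side of colonocytes, stood at 11.34, 11.45 and 11.32 in antibiotics replicates 1 to 3, against 11.53, 11.65 and 11.77 in re-fed replicates 1 to 3. The groups did not overlap, and their means were 11.37 ± 0.07 with antibiotics and 11.65 ± 0.12 in re-fed samples (SD, n = 3 each). This difference of -0.28 (SE 0.11, 95% interval -0.52 to -0.04) had the smallest unadjusted p of the 6 members tested (0.0266) and did not pass when adjusted over all genes (limma, adjusted p = 0.337). Restricted to the common run, it came to -0.32 (adjusted p = 0.202). Weighting arrays by their noise brought it past the threshold at -0.32 (limma, adjusted p = 0.0373), a setting in which 1169 genes passed. Absorptive colonocytes are the cells in which both transporters are best known, and over 10 of their markers the mean level was 12.88 to 13.04 in antibiotics arrays and 12.96 to 13.04 in re-fed arrays. The means of Lypd8, highest of these markers, and Ceacam20, lowest, were 13.78 and 11.87 over all arrays. Of the 10 differences, 6 lay above and 4 below 0. In 2, Krt20 and Aqp8, the groups did not overlap, lower with antibiotics (-0.46 and -0.29, limma, adjusted p = 0.203 and 0.289). Both were named after their values were seen, and 10.7% of all genes tested were apart in that direction. Over 10 epithelial markers the mean level was 11.92 to 12.04 with antibiotics and 12.11 to 12.17 in re-fed arrays, with 9 of 10 below 0. In 5 of these 10, Krt20 among them, the groups did not overlap, all lower with antibiotics, beside the same 10.7%. None of the 10 passed. The part of such shifts in the results was not tested, and in bulk RNA fewer cells of a type and less RNA per cell cannot be told apart.

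Slc5a12, a sodium-coupled lactate transporter of lower affinity (SMCT2), was dim, at 4.70, 4.53 and 4.50 in antibiotics arrays and 4.93, 4.76 and 4.72 in re-fed arrays. Its antibiotics values lay just under the re-fed ones, at levels where the array gives no sign of detection.

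**Figure D1:**
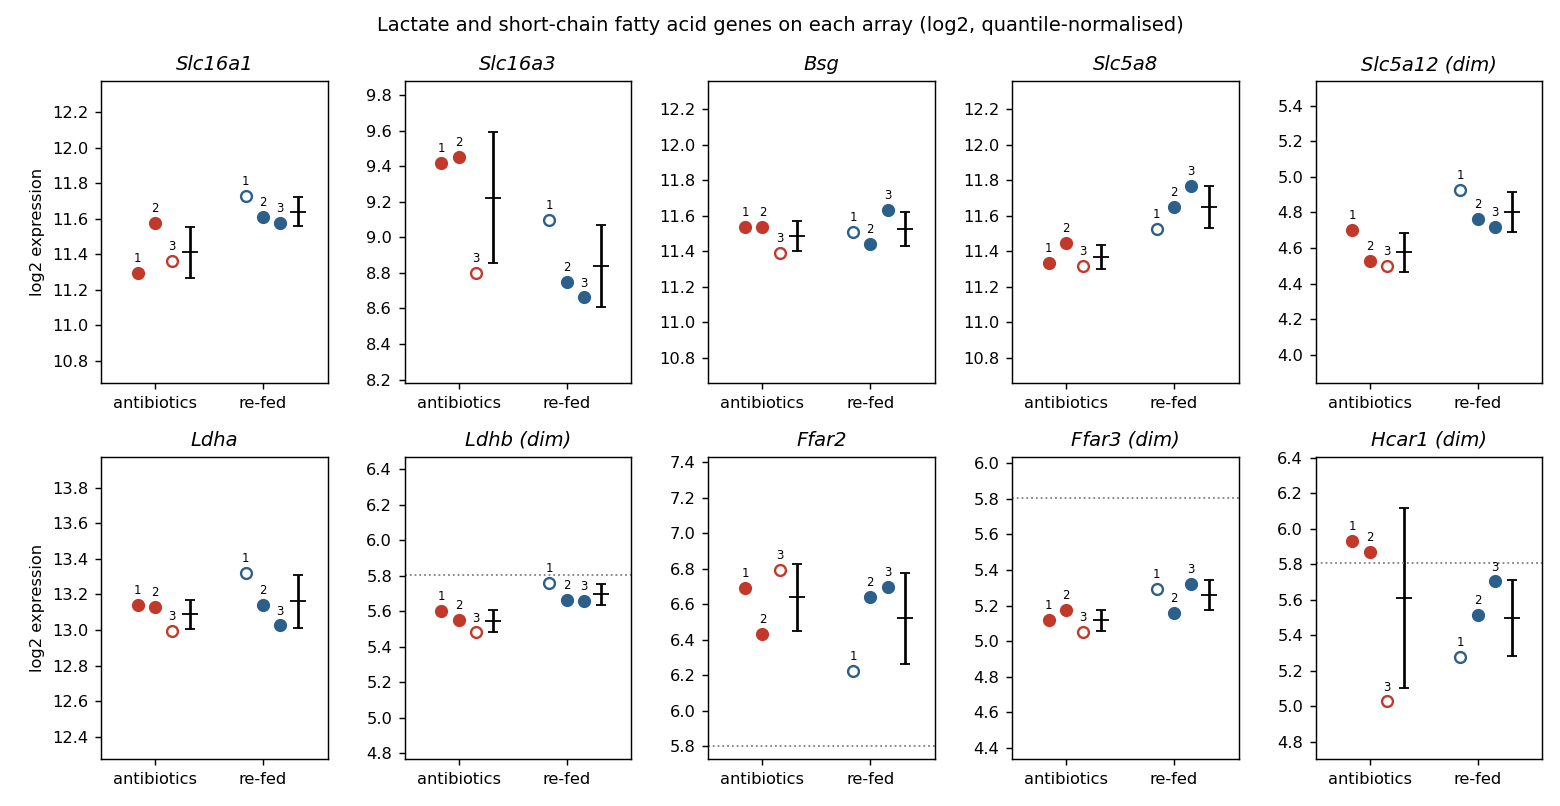
Log2 expression (vertical axis) of the 10 members in antibiotics samples (red, left) and re-fed samples (blue, right) of each panel, which spans the same log2 range in all panels. Numbers are replicates, filled points are arrays of the common run, open points the 2 other arrays, bars the mean ± SD of 3 arrays, and the dotted line the floor of 5.81. On this scale Slc5a8 and Slc16a1 lay lower in every antibiotics array, and antibiotics replicates 1 and 2 stand above all other arrays for Slc16a3.

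Slc16a3, the transporter (MCT4) that exports lactate from glycolytic cells, went the other way in the arrays of the common run. It stood at 9.42, 9.45 and 8.80 in antibiotics replicates 1 to 3, against 9.10, 8.75 and 8.66 in re-fed replicates 1 to 3. Antibiotics replicates 1 and 2 were the 2 highest arrays, while antibiotics replicate 3 lay under re-fed replicate 1, so the groups overlapped. Means were 9.22 ± 0.37 with antibiotics and 8.84 ± 0.23 in re-fed samples (SD, n = 3 each). Over 6 arrays the difference was 0.39 (SE 0.19, 95% interval -0.04 to 0.81, limma, adjusted p = 0.437). Within the common run Slc16a3 rose by 0.73 (SE 0.10, limma, adjusted p = 0.0371). Leaving out antibiotics replicate 3 gave 0.60, at an adjusted p of 0.149. Leaving out re-fed replicate 1 gave 0.52, and leaving out antibiotics replicate 2 gave 0.27, at adjusted p of 0.365 and 0.581. On the deposited scale the value within the common run was 0.64 (adjusted p = 0.0575), so the call there depends on the scaling. That scale shifts the median of all genes by -0.12 over 6 arrays, against which the 6-array value for Slc16a3 was 0.21. With array weights Slc16a3 passed at 0.61 (limma, adjusted p = 0.0162), a setting in which 1169 of 12071 genes passed.

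Bsg, the chaperone of both Slc16 transporters, stood at 11.54, 11.54 and 11.39 in antibiotics arrays, against 11.51, 11.44 and 11.63 in re-fed arrays. The groups overlapped, with a difference of -0.04 (SE 0.10, 95% interval -0.27 to 0.20, limma, adjusted p = 0.906). In the common run it was 0.00076.

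**Figure D2:**
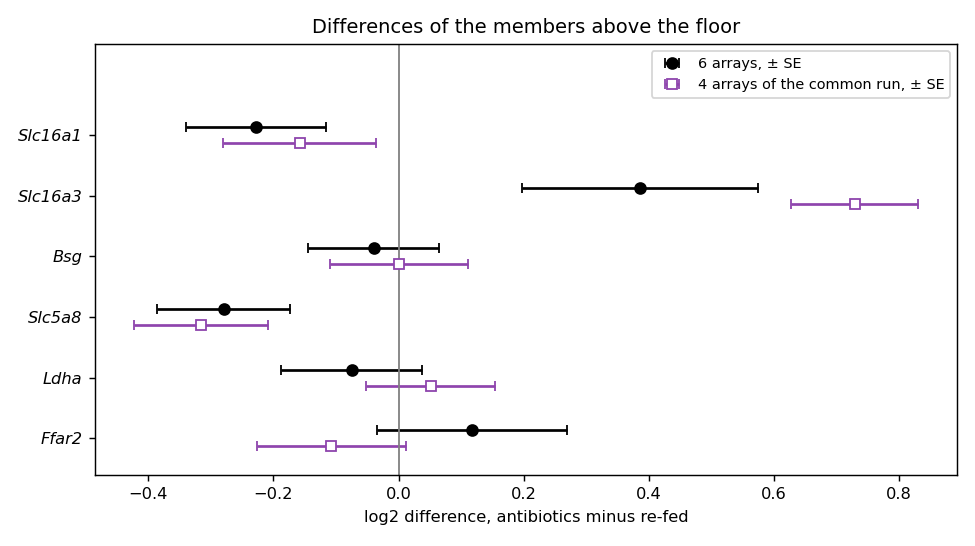
Log2 difference, antibiotics minus re-fed (horizontal axis), of the 6 members above the floor over 6 arrays (black, ± SE) and within the 4 arrays of the common run (purple, ± SE). Slc16a3 moves away from 0 within the common run (0.39 over 6 arrays, 0.73 in the run), while Bsg stays near 0 in both and Ldha changes sign.

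The log2 ratio of Slc16a3 to Slc16a1 on the same array sets the exporter of glycolytic cells against the transporter of both directions and does not depend on a shift of the whole array. Only its differences between arrays can be read, since probe sets of different genes are not on a common scale of level. It was -1.88, -2.12 and -2.57 in antibiotics replicates 1 to 3, against -2.63, -2.86 and -2.91 in re-fed replicates 1 to 3. All 3 antibiotics arrays lay above all re-fed arrays, antibiotics replicate 3 and re-fed replicate 1 by the smallest margin. On the deposited scale they were also apart, the lowest antibiotics value at -2.62 and the highest re-fed value at -2.65. The ratio averaged -2.19 ± 0.35 with antibiotics and -2.80 ± 0.15 in re-fed samples (SD, n = 3 each), a difference of 0.61. A two-sided exact permutation test gave p = 0.1, the smallest that this test allows with 3 against 3 samples, so it cannot reach 0.05. The difference was 0.89 in the common run and 0.46 to 0.80 when any 1 array was left out.

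Slc5a8 over Slc16a1 compares both uptake routes. This log2 ratio was 0.04, -0.13 and -0.04 in antibiotics arrays and -0.20, 0.04 and 0.19 in re-fed arrays, and the groups overlapped. Its difference of -0.05 (exact permutation p = 0.8) turned to 0.04 without re-fed replicate 3, so no unequal change of the 2 transporters was detectable with 3 samples a group. Of the 3 ratios compared, the remaining one, Ldha over Ldhb, follows with its genes. Adjusted over the 3 ratios (Benjamini-Hochberg), the exact p-values were 0.3 for Slc16a3 over Slc16a1, 0.45 for Ldha over Ldhb and 0.8 for Slc5a8 over Slc16a1.

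**Figure D3:**
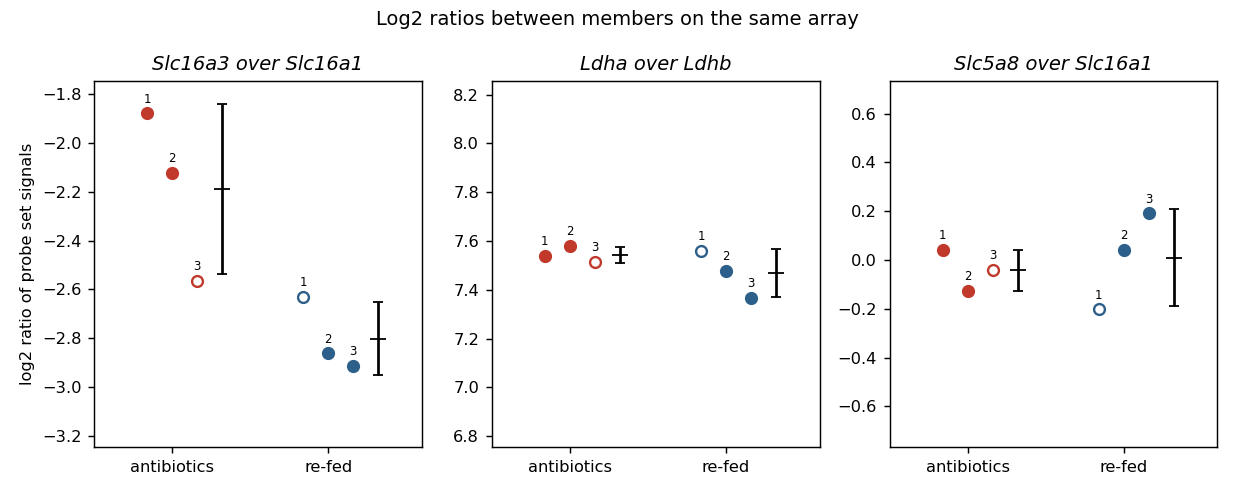
Log2 ratio of 2 probe set signals on the same array (vertical axis, same span in each panel) in antibiotics samples (red, left) and re-fed samples (blue, right). Numbers are replicates, filled points are arrays of the common run, and bars are the mean ± SD of 3 arrays. Of the 3 ratios, the groups are apart for Slc16a3 over Slc16a1 and overlap for the others.

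Ldha, the subunit that favours lactate formation, stood at 13.14, 13.13 and 12.99 in antibiotics arrays, against 13.32, 13.14 and 13.03 in re-fed arrays. The groups overlapped, and antibiotics replicate 1 and re-fed replicate 2 received the same value, as quantile normalisation gives to equal ranks. The difference was -0.07 (SE 0.11, 95% interval -0.33 to 0.18, limma, adjusted p = 0.822), and it turned to 0.05 in the common run.

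Ldhb, the subunit that favours the use of lactate, was dim in its kept probe set, at 5.60, 5.55 and 5.48 in antibiotics arrays, against 5.76, 5.66 and 5.66 in re-fed arrays. These groups did not overlap (difference -0.15), but the second Ldhb probe set lay higher with antibiotics (0.23), at 4.76, 5.23 and 5.48 in antibiotics arrays and 4.64, 5.04 and 5.08 in re-fed arrays. The direction for Ldhb thus depends on the probe set. Both probe sets carried the same number in antibiotics replicate 3, an array with 10829 distinct values in all, while the others had 34568 or more. The log2 ratio of Ldha to Ldhb had been planned as a comparison, but with Ldhb under the floor it cannot be read as a change between the subunits. Its difference of 0.08 (exact permutation p = 0.3) is given for completeness, and it was -0.12 with the mean of both Ldhb probe sets and -0.02 with the deposited scaling.

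Ffar2, a receptor for acetate and propionate that enteroendocrine cells and leukocytes carry, stood at 6.69, 6.43 and 6.79 in antibiotics replicates 1 to 3, against 6.23, 6.64 and 6.70 in re-fed replicates 1 to 3. Re-fed replicate 1 was lowest and the groups overlapped. The difference was 0.12 (SE 0.15, 95% interval -0.22 to 0.46, limma, adjusted p = 0.788) and turned to -0.11 in the common run. Over 10 enteroendocrine markers, from the neurotensin gene Nts (mean 3.75) to the peptide hormone gene Pyy (mean 8.54), 3 were dim. The 7 tested deviated from their own 6-array means by -0.06, -0.50 and 0.47 on average in antibiotics replicates 1 to 3, against 0.09, 0.11 and -0.11 in re-fed replicates 1 to 3. Antibiotics replicate 2 was thus the lowest and antibiotics replicate 3 the highest array for these markers. The same 2 arrays were the lowest and the highest of the antibiotics group for Ffar2. In the re-fed group the order went the other way, with replicate 3 the lowest for these markers and the highest for Ffar2. The part of enteroendocrine content in the Ffar2 values was not tested.

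Ffar3, the receptor that prefers propionate and butyrate, was dim, at 5.12, 5.17 and 5.05 in antibiotics arrays and 5.30, 5.16 and 5.32 in re-fed arrays. Hcar1, the lactate receptor, was dim on average but spread widely, at 5.93, 5.87 and 5.03 in antibiotics replicates 1 to 3, against 5.28, 5.52 and 5.70 in re-fed replicates 1 to 3. Antibiotics replicates 1 and 2 lay above the floor and above all other arrays, as they did for Slc16a3, and the 2 arrays outside the common run were the lowest. The difference was 0.11 over 6 arrays and 0.29 in the common run.

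The groups did not overlap, lower with antibiotics, for Slc16a1 and Slc5a8 among the members tested. The same held for the dim Slc5a12 and the kept probe set of the dim Ldhb, whose second probe set lay higher (0.23). With each array centred on its median instead, Slc16a1, Slc5a8 and Slc5a12 were apart and Ldhb overlapped, and on the deposited scale, where antibiotics replicate 3 has the lowest median, every member overlapped. A share over all genes, dim ones included, was not counted, so no count over all 10 members is read as a result. Among the 6 tested, 2 of 6 did not overlap, against 19.6% of all genes tested, of which 8.88% were higher and 10.7% lower with antibiotics (shares of all genes tested). The 6 had a median difference of -0.06, with 2 above and 4 below 0, beside 0.0033 for all genes tested.

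The wider pathway was read from 4 lists written from general knowledge. No gene of these lists passed limma's test over 6 arrays, against 0.0580% of all genes tested. The counts at an unadjusted p under 0.05 below stand beside 12.6% of all genes tested in either direction and 7.32% in the lower one. Of 18 other monocarboxylate carriers, partner proteins and receptors, 16 were analysed here and 9 lay above the floor and were tested, with 2 above and 7 below 0 and a median of -0.12, and 2 genes had an unadjusted p under 0.05, both lower. Slc9a3, the sodium/proton exchanger of the luminal membrane, differed by -0.63 (adjusted p = 0.170). Slc16a9, a member of the same family known in human as a carnitine carrier, had 6.95, 6.63 and 6.89 in antibiotics arrays, against 7.43, 7.08 and 7.20 in re-fed arrays. Every antibiotics array was lower in this probe set (difference -0.41, limma, adjusted p = 0.260). With the mean of all Slc16a9 probe sets the difference was -0.28 (limma, adjusted p = 0.345). Nptn, a partner protein related to basigin, differed by -0.14 (adjusted p = 0.580).

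Of 14 genes for the entry of pyruvate into mitochondria, 13 were tested, with 3 above and 10 below 0 and a median of -0.15. An unadjusted p under 0.05 was reached by 1 higher and 3 lower genes. None of the kinases that switch off pyruvate dehydrogenase passed. Pdk1 differed by 0.27 (adjusted p = 0.380), and by 0.075 on the deposited scale and 0.11 with median centring. Pdk3 differed by -0.34 (adjusted p = 0.259), and Pdk2, named after its values were seen, by 0.03. After quantile normalisation the groups of Pdk1 and of Pdk3 did not overlap. Pdp2, a phosphatase that switches the enzyme on, differed by -0.45 (adjusted p = 0.353). Pdk4, a kinase induced by fasting and named after its values were seen, had the widest spread, at 6.92, 8.84 and 6.94 in antibiotics replicates 1 to 3, against 8.04, 8.99 and 8.92 in re-fed replicates 1 to 3. Antibiotics replicate 2 lay among the re-fed arrays (difference -1.08, limma, adjusted p = 0.384).

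Of 17 genes that activate and oxidise short-chain fatty acids, 13 were analysed here and 12 lay above the floor and were tested, with 3 above and 9 below 0 and a median of -0.07, and 2 had an unadjusted p under 0.05, both lower. Acaa2, a mitochondrial thiolase, stood at 9.79, 9.25 and 9.53 in antibiotics arrays, against 10.15, 9.98 and 10.10 in re-fed arrays. Its groups did not overlap (difference -0.55, SE 0.14, limma, adjusted p = 0.195). Pcca, a subunit of the carboxylase that takes propionate onward, differed by -0.43 (adjusted p = 0.260). Acads, the dehydrogenase that begins butyrate oxidation, differed by -0.26 (adjusted p = 0.402). The enzymes that attach acetate to coenzyme A, Acss1 and Acss2, also named after their values were seen, differed by -0.17 and 0.17.

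**Figure D4:**
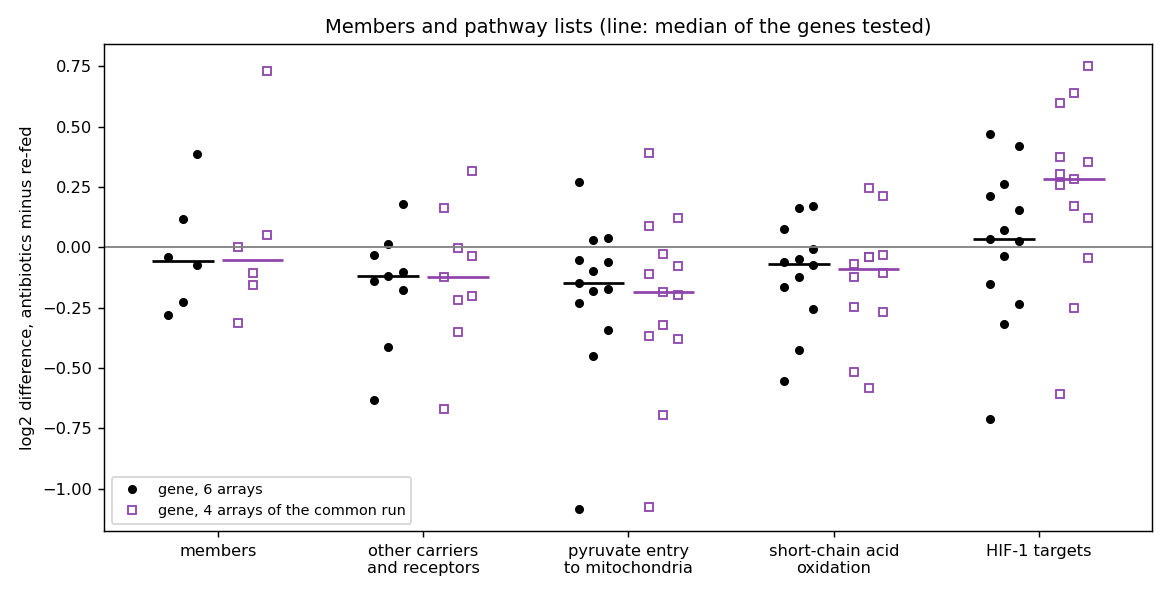
Log2 difference, antibiotics minus re-fed (vertical axis), of each tested gene among the members and the 4 pathway lists, over 6 arrays (black circles) and within the common run (purple squares). Lines are medians. The HIF-1 target median is 0.04 over 6 arrays and 0.29 in the common run, while the medians of the other lists differ by less than 0.05 between both.

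HIF-1 targets were listed because Slc16a3 and Ldha are among the known targets of this factor. Of 16 listed, 13 were tested, with 8 above and 5 below 0 and a median of 0.04 over 6 arrays, beside 0.0033 for all genes. At an unadjusted p under 0.05 there were 2 higher and 1 lower. On the deposited scale the median turned to -0.12, level with the shift of all genes on that scale. Within the common run the median was 0.29, beside 0.012 for all genes, and 1 target of 13 passed, against 0.447% of all genes there. That target was Egln3, an oxygen-sensing hydroxylase, which rose by 0.75 in the common run (limma, adjusted p = 0.0467) and differed by 0.42 over 6 arrays (adjusted p = 0.387). On the deposited scale in the common run Egln3 differed by 0.65 and did not pass (adjusted p = 0.0724), and the 1 target that passed there was Car9, which fell by 0.72 (limma, adjusted p = 0.0451). Egln3 stood at 9.95, 10.10 and 9.51 in antibiotics replicates 1 to 3, against 9.75, 9.36 and 9.18 in re-fed replicates 1 to 3. Antibiotics replicate 3 lay under re-fed replicate 1 here too, as for Slc16a3. Ankrd37, an ankyrin-repeat protein, had groups that did not overlap, higher with antibiotics (0.47, adjusted p = 0.203). Car9, a carbonic anhydrase at the cell surface, lay lower in every antibiotics array, at 8.72, 8.79 and 8.46, against 9.39, 9.29 and 9.44 in re-fed arrays (-0.71, limma, adjusted p = 0.0718). The listed targets thus lay on both sides of 0.

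By array, the 13 HIF-1 targets deviated from their own 6-array means by 0.06, 0.32 and -0.35 on average in antibiotics replicates 1 to 3, against 0.06, 0.004 and -0.08 in re-fed replicates 1 to 3. Antibiotics replicate 2 was highest and antibiotics replicate 3 lowest, so the widest gap lay inside the antibiotics group. The same 2 arrays were the highest and the lowest of the antibiotics group for Slc16a3, although antibiotics replicates 1 and 2 were nearly level there (9.42 and 9.45). Over all 6 arrays Slc16a3 was lowest in re-fed replicates 2 and 3 (8.75 and 8.66), where the targets deviated by 0.004 and -0.08. The part of the HIF-1 target differences between arrays in the Slc16a3 result was not tested.

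**Figure D5:**
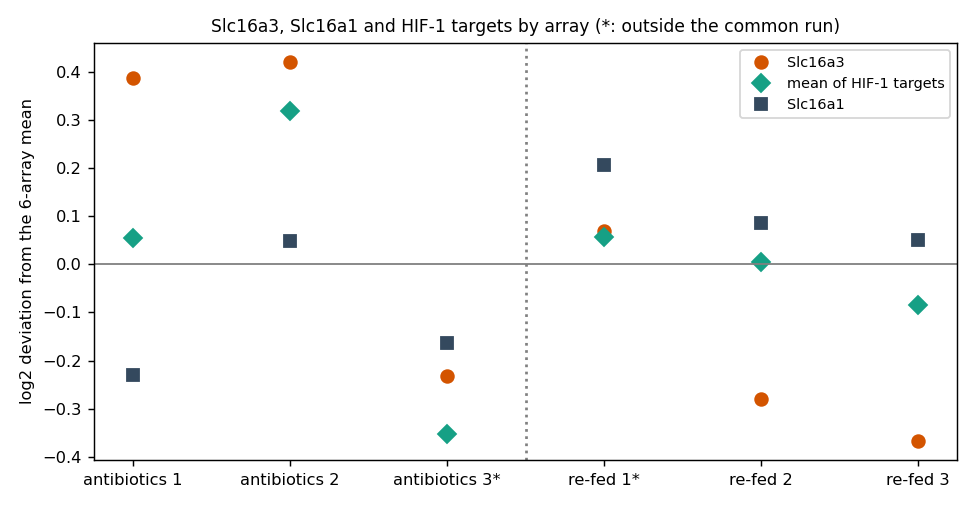
Log2 deviation from the 6-array mean (vertical axis) on each array for Slc16a3 (orange), Slc16a1 (dark squares) and the mean of 13 HIF-1 targets (green diamonds), antibiotics left of the dotted line and re-fed right, with a star for arrays outside the common run. Slc16a3 and the HIF-1 targets are both low in antibiotics replicate 3 and high in antibiotics replicate 2. Slc16a3 is lower still in re-fed replicates 2 and 3, where the HIF-1 targets are not at their lowest. Slc16a1 lies above its mean in all 3 re-fed arrays and in antibiotics replicate 2.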

How the data were processed

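The authors deposited log2 expression values of 35557 probe sets on 6 arrays, made with RMA (background correction, quantile normalisation and probe set summary) per the submitters' processing notes, with version, build and annotation not given in the sources used here. Array medians differed (5.63 to 6.17), so the 23410 gene-bearing probe sets were quantile-normalised again, with the deposited scale as an alternative. The platform table named 1 gene for 21789 probe sets, several for 1621 and none for 12147. Groups and replicate numbers came from the sample titles. A linear model for the 2 groups was fitted with limma 3.58.1 (R 4.3.3), with moderated variances, two-sided p-values and Benjamini-Hochberg adjustment over 12071 genes. The procedure was tested on simulated data. Precision is limited by the number of arrays.

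Members and lists were chosen with earlier results of these data known. Of 123 listed genes, 9 were not analysed here. The rule for named genes took all 10 members, up to 3 genes per pathway list with the smallest unadjusted p, the highest and lowest marker of each cell type list, Epcam and Ptprc. Same-numbered samples did not deviate together (correlations 0.021, -0.034 and -0.225 across genes), so numbers were not taken as pairs. Alternatives covered scaling, arrays, array weights, the filter, probe sets, the variance prior, the block and leaving out each array. The common run under the deposited scale, and without the filter for dim members, were added after seeing the data.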

Additional observations from a re-analysis of the deposited data

How the results depend on the processing

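Over 6 arrays 7 genes passed limma's test. The count was 45 with the deposited scaling, 62 with median centring, 54 within the common run, 75 there with the deposited scaling, 1169 with array weights, 2 with no filter, 43 with the stricter filter and 43 with an intensity trend, and it ranged from 0 to 11 when 1 array was left out. In the fit with 0 genes, without antibiotics replicate 1, 1040 had an unadjusted p under 0.05. The count was 4 without antibiotics replicate 2, 2 without antibiotics replicate 3, and 3 and 11 without re-fed replicates 2 and 3. Of the members, 1 passed within the common run, with or without the filter (Slc16a3), and 2 with array weights (Slc16a3 and Slc5a8), and 0 in the other settings run, including each fit that left out 1 array. The fit with the replicate block gave 7 genes and 0 members, and 0.39 for Slc16a3, a value that a balanced block cannot move.

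Slc16a1 kept its sign in all 16 settings (-0.38 to -0.16), as did Slc5a8 (-0.42 to -0.22) and Slc16a3 (0.21 to 0.73). Changing the filter, the variance prior, the block or the averaging of probe sets could not move these differences. For these genes only scaling, array weights and the choice of arrays tried the sign. The lowest value of each came with the deposited scaling over 6 arrays, where the median of all genes was itself -0.12. Car9 (-0.90 to -0.61) passed in 5 of 16 settings. The counts of called genes in the 4 pathway lists were 0 in 54 of 64 instances. Differences near 0 changed sign. Bsg was 0.00076 in the common run, 0.012 with array weights, and -0.083 to 0.012 when 1 array was left out (0.0091 without antibiotics replicate 3, 0.012 without re-fed replicate 3). Ldha was 0.051 in the common run, 0.064 there with the deposited scaling, 0.0022 with array weights and 0.0046 without re-fed replicate 1 (-0.14 to 0.0046 when 1 array was left out). Ffar2 was -0.11 in the common run, -0.068 there with the deposited scaling and -0.029 without re-fed replicate 1 (-0.029 to 0.22 when 1 array was left out). Epcam (-0.04 over 6 arrays) was 0.048, 0.015 and 0.026 in the same settings (-0.075 to 0.026 when 1 array was left out). The log2 ratio of Slc16a3 to Slc16a1 was 0.46 to 0.89 over 10 settings, the highest in the common run. Averaging probe sets could not move this ratio, and deposited scaling and median centring necessarily gave it the same value (0.59). Ldha over Ldhb was -0.017 with the deposited scaling or median centring and -0.12 with both Ldhb probe sets, and Slc5a8 over Slc16a1 was 0.039 without re-fed replicate 3. The cause of these changes was not tested.

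With 3 samples a group and 2 arrays of each group in the common run, the 95% intervals of 5 of the 6 members tested span 0. No detection call exists. The 4 dim members entered a test only in the fits with no filter, where their adjusted p (limma) was 0.637 to 0.920 over 6 arrays and 0.283 to 0.739 in the common run. The grouping into a common run was inferred from the values.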
